A study of Mus musculus with 9 samples.

Results

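The genes described here are 8 that carry fatty acids into a cell, bind them there, store them as triglyceride and release them again: Fabp4, Fabp5, Cd36, Lpl, Pparg, Plin2, Pnpla2 and Dgat1. They were chosen by name for their function, though with earlier results of these data known. All 8 were found by mouse symbol among the 47731 genes of the RNA table and passed the filter on low counts. Listed peaks of 5-hydroxymethylcytosine (5hmC, the oxidised form of DNA methylation that TET enzymes make) were taken with them where they overlapped a gene body by at least 1 base, which gave 3 of 9151 peaks. RNA was measured in 2 libraries labelled Tet2 knockout (KO) and 3 labelled wild-type (WT), and 5hmC in 2 libraries of each genotype. All were macrophages at passage 0 that had received M-CSF, the growth factor that keeps macrophages alive and drives their differentiation. Strain, sex, age, tissue of origin and the Tet2 allele are not stated in the labels, nor is pooling of animals.

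RNA libraries held 16053426 and 25479447 counts in genes for KO and 17569441 to 56394358 for WT. The 5hmC libraries held 46230 and 42489 counts in listed peaks for KO, against 42678 and 219116 for WT. Separate animals or cultures are not mentioned in the labels. Each p-value therefore weighs a difference only against the spread of these libraries around each other, which may be technical. Where the 5hmC fit took the KO libraries as 1 sample, that spread came from the 2 WT libraries alone. Plain CPM, as used here for marker sums, are counts scaled to a library total of 1000000. Tet2 itself, counted over the whole gene, stood at 232 and 126 CPM in the libraries labelled KO, against 86.2, 144 and 41.6 CPM in those labelled WT. Whole-gene Tet2 counts were thus not lower in KO, and they do not show which part was deleted. A feature that the files do not annotate, ENSMUSGKI000000001, had 1452 and 2245 counts (90.4 and 88.1 CPM) in the libraries labelled KO and 0 in all 3 labelled WT, where 3 counts would be at most 0.171 CPM, and so separates the libraries as the labels do. Each direction given here rests on the labels. All 12 macrophage markers reached 1 CPM in every library, summing to 20046 and 22311 CPM in the libraries labelled KO and to between 14899 and 20943 CPM in WT. Stromal markers (14 genes, collagens among them) summed to 26.0 and 17.5 CPM in the libraries labelled KO, to 7.80 and 8.18 CPM in WT replicates 1 and 2, and to 6073 CPM in WT replicate 3, which stood apart in this. B-cell, dendritic-cell and granulocyte marker sums stayed at or under 177 CPM in every library. In bulk samples such as these, fewer cells of a type and less RNA per cell cannot be told apart.

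Macrophages take up fatty acids in 2 main ways. The scavenger receptor CD36 moves them across the membrane, and lipoprotein lipase, LPL, frees them from the triglyceride of lipoproteins outside the cell. Inside, the fatty acid binding proteins FABP4 and FABP5 carry them, DGAT1 esterifies them to triglyceride, perilipin 2 (PLIN2) coats the droplets that hold it, and ATGL (gene symbol Pnpla2) starts its breakdown. PPARγ, a nuclear receptor that fatty acids and their derivatives activate, pairs with an RXR partner and drives transcription of many of these genes, Fabp4, Cd36, Lpl and Plin2 among them.

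The 2 binding proteins and the first lipase of triglyceride breakdown lay lower in both libraries labelled KO than in every WT library, while the uptake, storage and PPARγ genes overlapped between genotypes. Levels are given as normalised CPM, counts per 1000000 of the library size after TMM scaling, and fold changes as log2 of KO over WT from edgeR. The fitted level was lower in KO for 6 of the 8 genes, beside 51.6% of the 14851 genes tested, and their median log2 fold change was -0.85, beside -0.03 for all genes. None of the 8 passed an edgeR adjusted p of 0.05, which 0.0135% of all genes did as higher and 0% as lower. At an unadjusted p under 0.05, 3 of the 8 were lower (Fabp4, Fabp5 and Pnpla2), beside 7.86% of all genes, and none was higher, beside 5.95%. The same 3 genes had both KO libraries below all WT libraries, beside 19% of all genes, and none had both above, beside 17.2%. DESeq2, the other count test run, called 2 of the 8 lower (Fabp4 and Fabp5), beside 4.79% of all genes, and none higher, beside 3.37%.

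**Figure D1:**
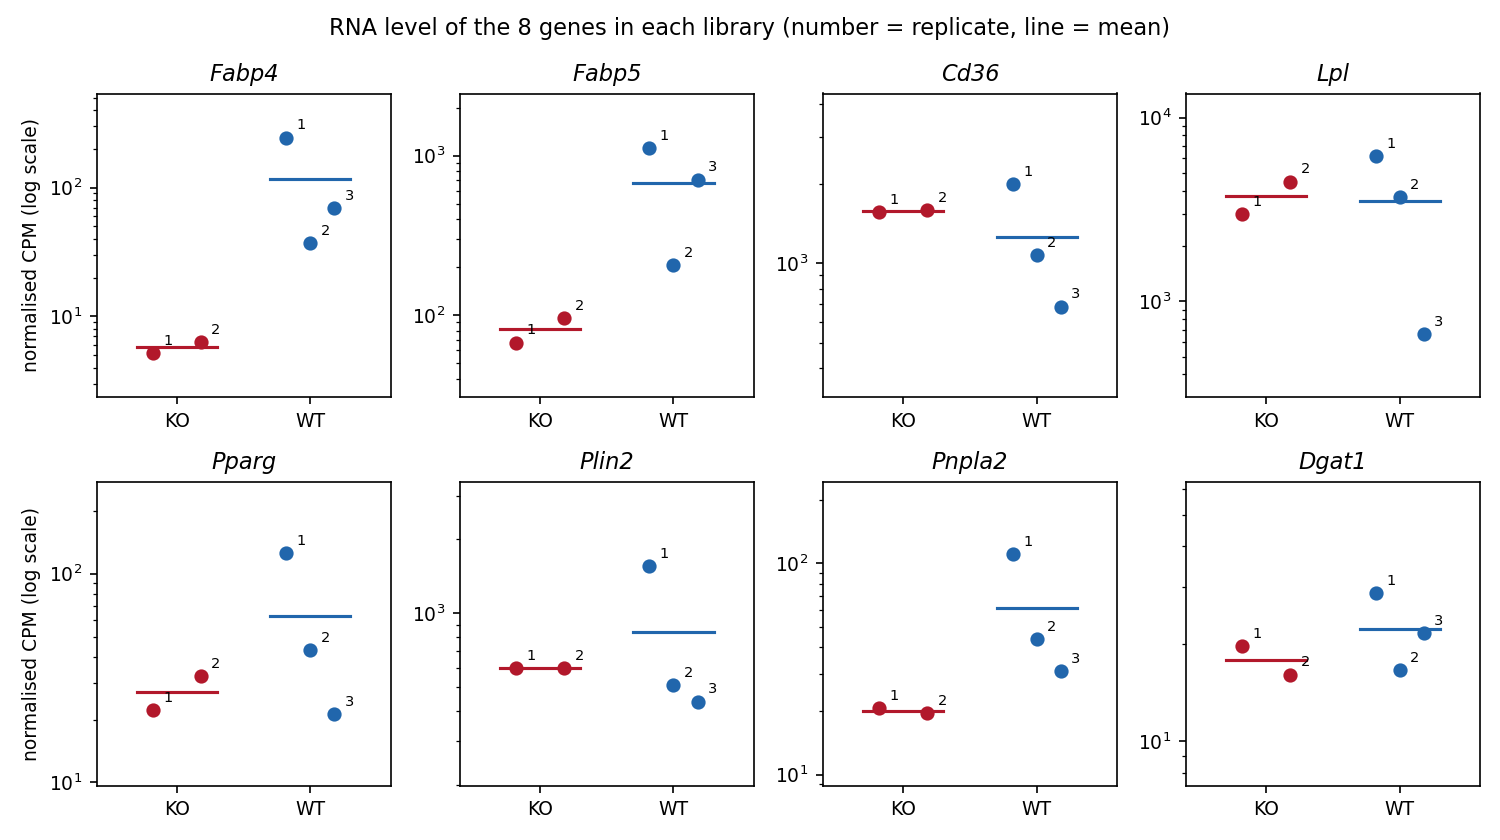
Normalised CPM (log scale) of each of the 8 genes in the 2 libraries labelled KO (red) and the 3 labelled WT (blue); each point is 1 library with its replicate number, and the line is the group mean. Fabp4, Fabp5 and Pnpla2 lie lower in both KO libraries than in every WT library, and WT replicate 1 is the highest point in all 8 panels.

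One WT library stood out across these genes. WT replicate 1 held the highest level of all 5 libraries for 8 of the 8 genes, a place it held for 29.7% of all genes tested, and before TMM scaling it was also the highest for 8 of the 8, beside 14.3%. WT replicate 3 was the lowest for 4 of them (Cd36, Lpl, Pparg and Plin2), beside 28.3% of all genes. Among the WT libraries the highest level was 1.73 to 9.28 times the lowest, whereas the 2 KO libraries differed by at most 1.504 times for any of the 8 genes. Without WT replicate 1 the median log2 fold change of the 8 was -0.19 in place of -0.85, the same 3 genes stayed lower without overlap (beside 23.1% of all genes), and Cd36 and Plin2 were then higher without overlap (beside 21.6%). Without WT replicate 3, Pparg joined the lower genes, making 4 (beside 27.9%).

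Promoter sequence is shown for the genes whose expression or nearby 5hmC peaks are described below and which a RefSeq table of the same build (GRCm38.p6) covers: 4 of the 8 genes matched it, with 6 start sites. Each line gives the 250 bases before a start site, 5′ to 3′ on the gene's own strand, and capitals mark matches to the motifs searched. The last is the third of the 3 start sites listed for Pparg.
Cd36, chr5:17835897-17836146, minus strand: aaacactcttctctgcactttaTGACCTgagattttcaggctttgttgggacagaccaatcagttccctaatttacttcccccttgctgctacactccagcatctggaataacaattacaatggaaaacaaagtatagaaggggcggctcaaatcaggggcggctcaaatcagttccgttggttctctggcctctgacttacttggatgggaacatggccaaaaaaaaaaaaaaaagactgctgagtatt
Plin2, chr4:86670060-86670309, minus strand: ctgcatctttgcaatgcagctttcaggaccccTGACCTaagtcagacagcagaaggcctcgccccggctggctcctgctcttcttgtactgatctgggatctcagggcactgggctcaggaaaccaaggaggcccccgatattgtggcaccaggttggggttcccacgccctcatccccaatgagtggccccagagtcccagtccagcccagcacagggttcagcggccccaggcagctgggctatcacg
Pnpla2, chr7:141454938-141455187, plus strand: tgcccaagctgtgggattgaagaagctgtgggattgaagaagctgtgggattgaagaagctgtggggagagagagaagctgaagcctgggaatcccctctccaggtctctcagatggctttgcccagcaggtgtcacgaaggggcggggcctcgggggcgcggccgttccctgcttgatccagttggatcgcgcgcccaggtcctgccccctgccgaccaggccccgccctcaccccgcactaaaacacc
Pparg, chr6:115421816-115422065, plus strand: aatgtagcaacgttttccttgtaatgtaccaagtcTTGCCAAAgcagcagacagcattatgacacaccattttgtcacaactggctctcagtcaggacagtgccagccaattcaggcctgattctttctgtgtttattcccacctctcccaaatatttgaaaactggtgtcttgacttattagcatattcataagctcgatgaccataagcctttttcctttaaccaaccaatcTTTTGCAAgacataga
The 300-base windows, reaching 50 bases past the start, were searched on both strands for 5 motifs. The nuclear receptor core motif AGGTCA was in 4 of the 6 windows, beginning 228 bases before the start of Cd36, 218 before that of Plin2, and 28 and 9 before the first and second starts of Pparg; 16.3% of all 32851 windows hold it. The full PPAR-RXR element of a direct repeat, AGGTCANAGGTCA, was in none of the 6 and in 0.0396% of all windows. The C/EBP motif TTGCNNAA was matched in the third Pparg window only, at 215 and 16 bases before the start, and 10.8% of all windows hold it. The RUNX motif TGTGGT (16.8% of all windows) and the ETS core AGGAAG (35.4%) were in none of the 6. A match is a match of letters, not a shown binding site.

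Fabp4 (ENSMUSG00000062515; GRCm38 chr3:10204342-10208616), the fatty acid binding protein shared by adipocytes and macrophages, was at 5.19 and 6.28 normalised CPM in the libraries labelled KO, against 244, 37.0 and 68.8 in WT. Both KO libraries were low and close together, and the lowest WT library was 5.90 times the higher of them. The log2 fold change was -4.34 ± 0.97 (SE; 95% interval -6.77 to -1.92), with an edgeR unadjusted p of 0.00514 and an edgeR adjusted p of 0.207. DESeq2 gave an adjusted p of 1.6e-05 for nearly the same fold change, -4.31. With each library left out in turn the log2 fold change ran from -4.77 to -3.25, the smallest without WT replicate 1.

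Fabp5 (ENSMUSG00000027533; chr3:10012585-10016610), its close relative that also binds retinoic acid and other lipids, was at 67.3 and 95.6 normalised CPM in the libraries labelled KO, against 1115, 206 and 707 in WT. The groups did not overlap, and the lowest WT library was 2.15 times the higher KO library. In the fit this gave a log2 fold change of -3.05 ± 0.78 (SE; 95% interval -5.00 to -1.10; edgeR adjusted p = 0.233; DESeq2 adjusted p = 0.00111), and it ran from -3.49 to -2.54 with 1 library left out. A pseudogene copy that could share its reads, Fabp5l2, had 0 and 0 counts in the KO libraries and 4, 1 and 3 in WT.

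Fabp4 and Fabp5 lie in 1 family cluster on chromosome 3, with 3 genes between them that the RNA table holds. Pmp2, the myelin member of the family, had 0 counts in all 5 libraries, and Fabp9, its testis member, had 1 count in all, in WT replicate 3. The pseudogene Gm9833 had a log2 fold change of 0.32 (edgeR adjusted p = 0.848), with 62 and 129 counts in KO against 21, 224 and 289 in WT. Elsewhere in the genome the genes whose pattern over the 5 libraries lay nearest to that of Fabp4 were Egr2, Bex1 and Hpse, of 11074 compared. Their root-mean-square differences from Fabp4 in centred log2 normalised CPM were 0.32, 0.32 and 0.34. Egr2, a zinc finger transcription factor, was at 2.14 and 2.17 normalised CPM in KO, against 89.7, 25.5 and 32.9 in WT. Bex1 was at 0.061 and 0 in KO, against 26.1, 1.75 and 4.33 in WT. Its KO values lie under the 0.5 CPM added before taking log2, so its likeness depends on that constant. Hpse, heparanase, was at 10.1 and 23.6 in KO, against 528, 103 and 140 in WT, again with WT replicate 1 highest.

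Fabp4 is also abundant in adipocytes and in capillary endothelium, so markers of both were read beside it. Of 11 adipocyte markers none reached 1 CPM in any library. Lep, Cfd and Pck1 were at 0 in all 5 libraries, and the 11 summed to 0.374 and 0 CPM in KO and to 0.171, 0.0974 and 0.284 in WT. The 10 endothelial markers summed to 59.1 and 40.2 CPM in KO, against 211, 73.9 and 114 in WT, so this sum was lower in KO along with Fabp4. Most of the WT sum was Vwf (von Willebrand factor), at 13.6 and 17.5 CPM in KO against 194, 62.5 and 78.5 in WT. The other 9 summed to 45.5 and 22.7 CPM in KO and to 17.2, 11.4 and 35.8 in WT, with Cldn5 and Emcn at 0 in 4 of the 5 libraries and Cdh5 at 0 in WT replicate 1. Of the 7 endothelial markers tested, fitted levels were higher in KO for 3 and lower for 4. Pecam1 lay the other way from Vwf, at 26.4 and 7.14 CPM in KO against 1.82, 1.52 and 2.50 in WT. The part of endothelial cells in the Fabp4 difference was not tested.

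**Figure D2:**
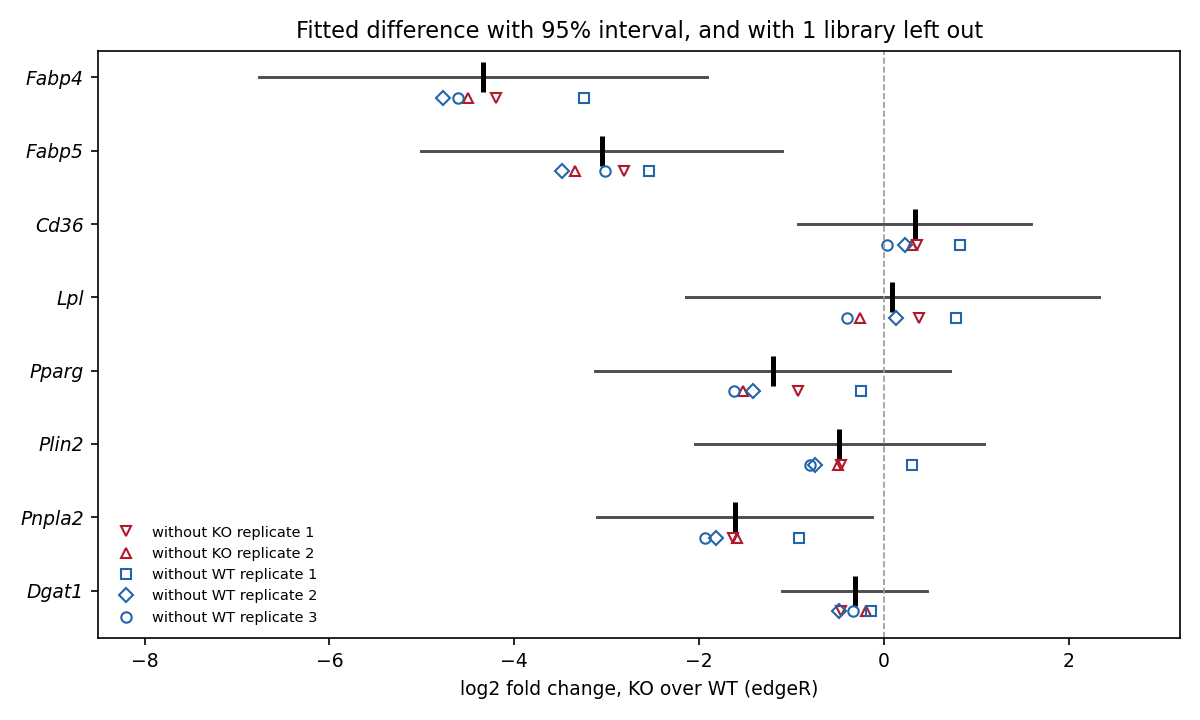
Fitted log2 fold change of KO over WT for the 8 genes (black bar) with its 95% interval (grey line), and the same value with 1 library left out (open symbols, red for a KO library and blue for a WT library). The intervals of Fabp4, Fabp5 and Pnpla2 lie below 0, and leaving out WT replicate 1 (blue square) gave the highest value for every gene.

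Cd36 (ENSMUSG00000002944; chr5:17781690-17888959), the membrane receptor for fatty acids and oxidised lipoproteins, was at 1560 and 1588 normalised CPM in the libraries labelled KO, against 1997, 1074 and 684 in WT. The KO libraries lay inside the WT range. The fitted log2 fold change was 0.33 ± 0.50 (SE; 95% interval -0.93 to 1.59; edgeR adjusted p = 0.799), an interval with room for a change in either direction. It was 0.82 without WT replicate 1 and 0.03 without WT replicate 3.

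Lpl (ENSMUSG00000015568; chr8:68880555-68906932), the secreted lipase, was at 2979 and 4480 normalised CPM in KO, against 6145, 3699 and 662 in WT. The WT libraries spanned 9.28-fold, more than for any other of the 8 genes, and the KO libraries lay within that span. Its log2 fold change was 0.09 ± 0.90 (SE; 95% interval -2.15 to 2.33; edgeR adjusted p = 0.972). Its sign depended on the libraries: it was -0.40 without WT replicate 3, the library with the stromal markers, and 0.77 without WT replicate 1.

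Of 8 genes that mature, inhibit or work beside LPL, 6 were tested. Fitted levels were higher for 3 and lower for 3, with a median of -0.91 that became 0.22 without WT replicate 3. edgeR called none, and DESeq2 called 1 lower, beside 4.79% of all genes. Angptl4, the secreted inhibitor of LPL and a PPAR target, was at 0.366 and 1.41 normalised CPM in KO, against 33.5, 3.80 and 6.30 in WT (log2 -3.99 ± 1.30 SE; edgeR adjusted p = 0.288; DESeq2 adjusted p = 0.00667). Sel1l, an endoplasmic reticulum factor that LPL maturation needs, was at 416 and 340 in KO, against 289, 264 and 234 in WT (log2 0.53 ± 0.23 SE; edgeR adjusted p = 0.392). Lipa, the lysosomal acid lipase that frees fatty acids from lipoproteins after they are taken up, was at 455 and 781 in KO, against 4307, 1632 and 735 in WT, and overlapped.

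Of 20 genes of fatty acid uptake, activation and binding beyond the 8, 15 were tested, with 4 higher and 11 lower fitted levels and a median of -0.41 (-0.90 without KO replicate 1 and -0.21 without WT replicate 3). edgeR called none. By its unadjusted p, 1 was higher (beside 5.95% of all genes) and 4 were lower (beside 7.86%) at the 0.05 level. DESeq2 called 1 higher (beside 3.37%) and 3 lower (beside 4.79%). Dbi, which binds acyl-CoA, was at 34.9 and 39.5 normalised CPM in KO, against 74.0, 83.4 and 118 in WT (log2 -1.30 ± 0.28 SE; edgeR adjusted p = 0.199; DESeq2 adjusted p = 0.00509). Scarb1, the HDL receptor, was at 48.1 and 52.4 in KO, against 98.5, 84.4 and 110 in WT (log2 -0.96 ± 0.21 SE; edgeR adjusted p = 0.200; DESeq2 adjusted p = 0.00460). Slc27a6, a fatty acid transport protein, had 0 counts in both KO libraries and 40, 71 and 162 counts in WT. The one gene higher by DESeq2 was Acsl1, the acyl-CoA synthetase that activates long-chain fatty acids, named after its values were seen: it was at 124 and 144 in KO, against 77.1, 76.4 and 77.4 in WT (log2 0.80 ± 0.18 SE; edgeR adjusted p = 0.208; DESeq2 adjusted p = 0.00027).

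Pparg (ENSMUSG00000000440; chr6:115360879-115490404) was at 22.2 and 32.4 normalised CPM in the libraries labelled KO, against 125, 42.9 and 21.2 in WT. WT replicate 3 lay below both KO libraries, and the other 2 WT libraries above them. Fitted over all 5 libraries, the log2 fold change was -1.21 ± 0.77 (SE; 95% interval -3.13 to 0.72; edgeR adjusted p = 0.536). It was -0.25 without WT replicate 1 and -1.62 without WT replicate 3, so these 2 libraries set its size. The genes nearest to its pattern were Mpeg1, Stkld1 and Oit3, with root-mean-square differences of 0.18, 0.20 and 0.21. Mpeg1, the macrophage pore protein perforin-2, was at 1679 and 2224 normalised CPM in KO, against 11053, 2906 and 1315 in WT. Stkld1 was at 0.488 and 0.609 in KO, against 3.35, 1.32 and 0.384 in WT. Its KO values lie near the 0.5 CPM added before taking log2.

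Among 17 PPAR and RXR receptors, cofactors and myeloid factors, 15 were tested, with 8 higher and 7 lower fitted levels and a median of 0.02 (-0.25 to 0.17 with 1 library left out). edgeR called none, and DESeq2 called 2 lower, beside 4.79% of all genes. Rxra, the RXR partner of PPARγ, was at 20.1 and 30.8 normalised CPM in KO, against 180, 84.6 and 136 in WT (log2 -2.39 ± 0.42 SE; edgeR adjusted p = 0.173; DESeq2 adjusted p = 1.6e-05). Cebpa, which acts with PPARγ in adipocyte differentiation and is a myeloid factor as well, was at 14.7 and 26.6 in KO, against 248, 72.7 and 112 in WT (log2 -2.80 ± 0.65 SE; edgeR adjusted p = 0.210; DESeq2 adjusted p = 0.000577). Its relative Cebpd lay the other way, at 103 and 92.0 in KO, against 11.1, 56.5 and 24.0 in WT (log2 1.67 ± 0.64 SE; edgeR adjusted p = 0.348; DESeq2 adjusted p = 0.135).

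Dgat1 (ENSMUSG00000022555; chr15:76502012-76512021), which joins the last fatty acid to diacylglycerol, was at 19.7 and 16.1 normalised CPM in the libraries labelled KO, against 28.7, 16.6 and 21.6 in WT. The ranges overlapped, and of the 8 genes it had the narrowest WT span, 1.73-fold. Its fitted log2 fold change was -0.32 ± 0.32 (SE; 95% interval -1.11 to 0.47; edgeR adjusted p = 0.681).

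Of 17 genes of triglyceride and sterol ester synthesis beyond Dgat1, 13 were tested, 6 with higher and 7 with lower fitted levels. The median was -0.11 (-0.40 to 0.01 with 1 library left out). edgeR called none, and DESeq2 called 1 lower, beside 4.79% of all genes. Lpin1, a phosphatidate phosphatase that makes diacylglycerol, was at 6.59 and 6.93 normalised CPM in KO, against 64.3, 13.97 and 49.9 in WT (log2 -2.66 ± 0.70 SE; edgeR adjusted p = 0.238; DESeq2 adjusted p = 0.00411). Soat1, which esterifies cholesterol in macrophages, was at 265 and 290 in KO, against 1552, 519 and 449 in WT (log2 -1.60 ± 0.64 SE; edgeR adjusted p = 0.361). Agpat3, an acyltransferase, was at 92.7 and 90.0 in KO, against 56.4, 60.2 and 69.1 in WT (log2 0.56 ± 0.19 SE; edgeR adjusted p = 0.296). In each of these 3 the genotypes did not overlap.

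Plin2 (ENSMUSG00000028494; chr4:86626910-86670217), the droplet coat protein, was at 597 and 596 normalised CPM in the libraries labelled KO, against 1560, 509 and 436 in WT. The KO libraries were almost equal and lay above 2 of the WT libraries and below the first. The log2 fold change was -0.49 ± 0.63 (SE; 95% interval -2.05 to 1.08; edgeR adjusted p = 0.760), and it was 0.31 without WT replicate 1, so its sign rested on that library.

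Of 14 other genes of droplet coat and assembly, 7 were tested, 2 with higher and 5 with lower fitted levels, and the median was -0.63 (-0.13 without WT replicate 3); neither edgeR nor DESeq2 called any. Plin3, a coat protein of small droplets, was at 64.8 and 75.8 normalised CPM in KO, against 199, 96.6 and 127 in WT (log2 -0.999 ± 0.36 SE; edgeR adjusted p = 0.319). Bscl2, which encodes seipin, was at 37.2 and 40.5 in KO, against 79.8, 49.5 and 51.8 in WT (log2 -0.63 ± 0.28 SE; edgeR adjusted p = 0.396). Hsd17b11, a droplet enzyme, was at 15.3 and 28.0 in KO, against 56.8, 47.3 and 19.5 in WT, and overlapped. The adipocyte coat gene Plin1 was among the 7 that were too low to test.

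Pnpla2 (ENSMUSG00000025509; chr7:141455188-141460743), which encodes ATGL, was at 20.6 and 19.5 normalised CPM in the libraries labelled KO, against 110, 43.7 and 30.9 in WT. The groups did not overlap, and the lowest WT library was 1.498 times the higher KO library. The log2 fold change was -1.62 ± 0.60 (SE; 95% interval -3.10 to -0.13), with an edgeR unadjusted p of 0.0378 and adjusted p values of 0.329 by edgeR and 0.0986 by DESeq2. It was -0.92 without WT replicate 1 and -1.94 without WT replicate 3.

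Of 12 other genes of lipolysis, 10 were tested, 4 with higher and 6 with lower fitted levels, and the median was -0.33 (-0.46 to -0.16 with 1 library left out). edgeR called none, and DESeq2 called 3 lower, beside 4.79% of all genes. Mgll, the monoacylglycerol lipase that ends triglyceride breakdown, had the largest fitted difference of the 10, at 1.404 and 2.398 normalised CPM in KO against 253, 18.0 and 46.2 in WT (log2 -5.78 ± 1.43 SE; edgeR adjusted p = 0.226; DESeq2 adjusted p = 6.5e-06). Pnpla7, a lysophospholipase, was at 65.8 and 54.5 in KO, against 328, 172 and 116 in WT (log2 -1.77 ± 0.49 SE; edgeR adjusted p = 0.244; DESeq2 adjusted p = 0.0155). Nceh1, a cholesteryl ester hydrolase of macrophages, was at 203 and 256 in KO, against 816, 413 and 454 in WT (log2 -1.29 ± 0.39 SE; edgeR adjusted p = 0.270; DESeq2 adjusted p = 0.0332). Lipe, the hormone-sensitive lipase that acts between ATGL and MGLL, was at 39.8 and 32.5 in KO, against 29.1, 34.7 and 17.7 in WT, and overlapped; it was added after its values were seen.

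Fatty acid oxidation was the list with the largest share of lower fitted levels. Of its 26 genes 24 were tested, and 21 had lower and 3 higher fitted levels, with a median of -0.41 (-0.56 to -0.29 with 1 library left out); 14 lay lower in both KO libraries than in every WT library and 2 higher, beside 19% and 17.2% of all genes. edgeR called none; by its unadjusted p, 7 were lower (beside 7.86% of all genes) and none higher at the 0.05 level, and DESeq2 called 4 lower (beside 4.79%). Acadl, the long-chain acyl-CoA dehydrogenase, was at 11.2 and 20.5 normalised CPM in KO, against 43.6, 50.7 and 40.5 in WT (log2 -1.50 ± 0.33 SE; edgeR adjusted p = 0.204; DESeq2 adjusted p = 0.00195). Acaa2, the mitochondrial thiolase, was at 14.5 and 24.2 in KO, against 46.0, 42.6 and 42.5 in WT (log2 -1.17 ± 0.29 SE; edgeR adjusted p = 0.226; DESeq2 adjusted p = 0.00832). Echs1, the short-chain enoyl-CoA hydratase, was at 23.4 and 31.3 in KO, against 61.4, 45.0 and 62.8 in WT (log2 -1.04 ± 0.26 SE; edgeR adjusted p = 0.231; DESeq2 adjusted p = 0.0209). In these 3 enzymes the WT libraries lay close together, and WT replicate 1 was the highest library only for Acaa2.

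**Figure D3:**
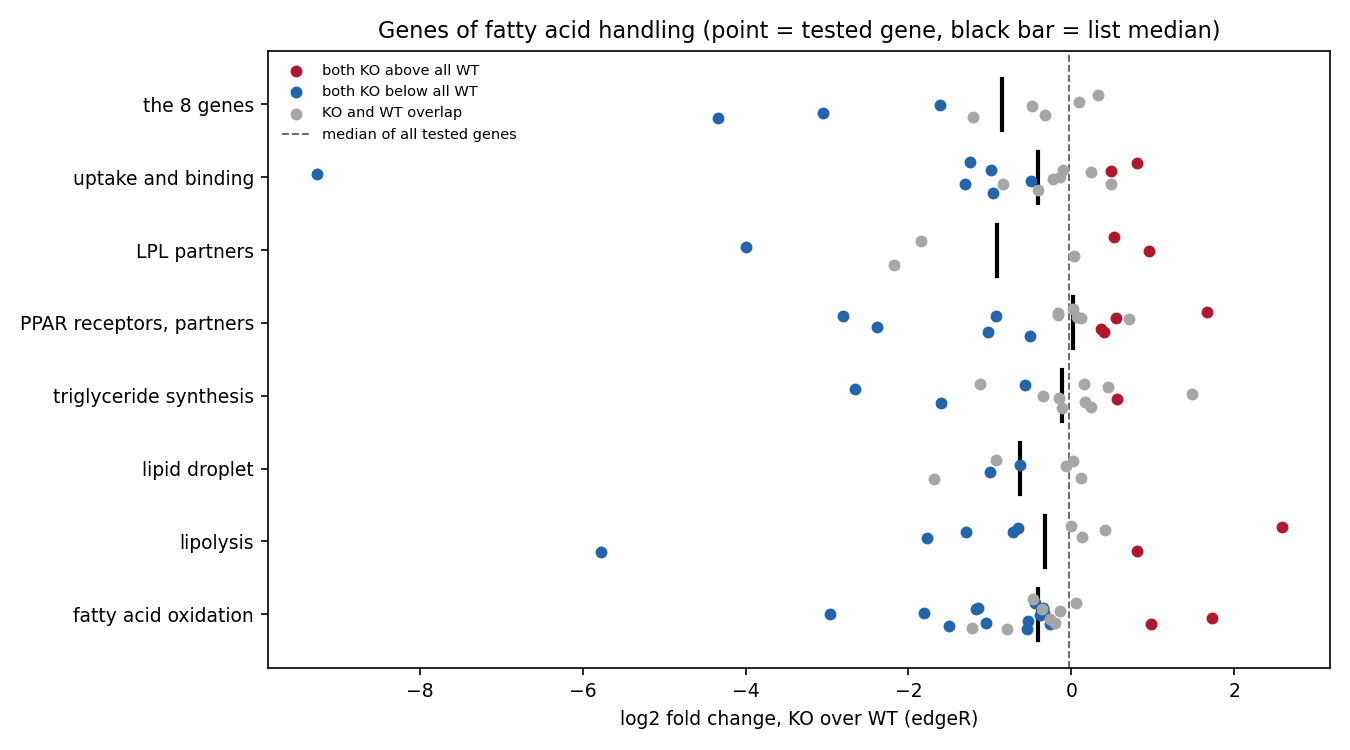
Fitted log2 fold change of KO over WT for every tested gene of the 8 and of the 7 pathway lists (1 point per gene, coloured by whether the genotypes overlap), with each list's median as a black bar and the median of all tested genes as a dashed line at -0.03. The medians run from -0.91 for the LPL partners to 0.02 for the PPAR receptors and partners. That of the LPL partners rests on 6 tested genes, 3 higher and 3 lower, and was 0.22 without WT replicate 3.

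Of the 8 genes, Pnpla2, Cd36 and Pparg held a listed 5hmC peak in the gene body, 1 each. The deposited list is part of a longer one, chosen by a rule the sources used here do not give: peak numbers in its names reach 12299 for KO and 56360 for WT, and 2107 and 8001 of these names are listed. A gene without a listed peak may therefore still carry 5hmC. In Pnpla2 the peak chr7:141456641-141457126, whose centre lies 1.70 kb past the start site shown above, was called by the authors in both genotypes. It had 12 and 12 counts in the libraries labelled KO, against 6 and 37 in WT. Per 100000 counts in listed peaks that is 26.0 and 28.2 in KO (exact Clopper-Pearson 95% intervals 13.4 to 45.3 and 14.6 to 49.3), against 14.1 and 16.9 in WT (5.16 to 30.6 and 11.9 to 23.3). The intervals cover counting error only. The KO values were the higher ones, with overlapping intervals. The 2 KO libraries differed from each other by less than sampling noise, so they were counted as 1 sample, and the log2 fold change was then 0.81 ± 0.63 (SE; 95% interval -0.42 to 2.04; edgeR adjusted p = 0.367). Entered as 2 samples instead, the KO libraries gave a log2 fold change of 0.01 (edgeR adjusted p = 0.986), so the size of this value depends on that choice. With a single KO library in place of their mean it was 0.57 (without KO replicate 1) and 0.65 (without KO replicate 2). Over all 859 peaks tested with the KO mean, 17.9% were called higher and 1.75% lower, while with the KO libraries as 2 samples 152 were called higher and 151 lower of 480 tested.

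The other 2 peaks in gene bodies were called in WT only and had too few counts to test. In Cd36 the peak chr5:17881926-17882213 lies 46.17 kb upstream of the start site shown above, inside the longer RefSeq gene span. It had 3 and 2 counts in KO, against 1 and 21 in WT, or 6.49 and 4.71 per 100000 in KO against 2.34 and 9.58 in WT. In Pparg the peak chr6:115479332-115479628 lies 57.41 kb past the third start site. It had 2 and 3 counts in KO, against 2 and 16 in WT, or 4.33 and 7.06 per 100000 in KO against 4.69 and 7.30 in WT. In both peaks the ranges of the 2 genotypes overlapped, and most of the counts came from the deepest library, WT replicate 2.

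**Figure D4:**
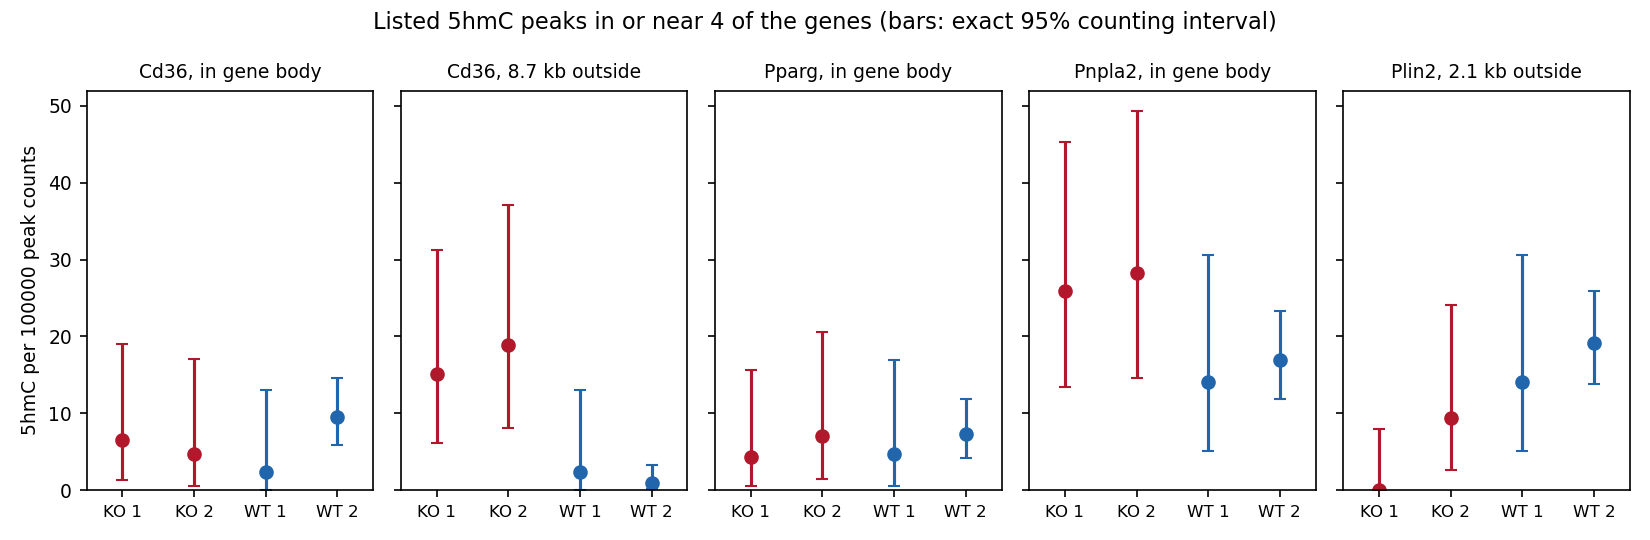
5hmC counts per 100000 counts in listed peaks in each library (KO red, WT blue) for the 3 peaks inside the gene bodies of Cd36, Pparg and Pnpla2 and the nearest listed peaks outside Cd36 and Plin2; bars are exact 95% counting intervals. The Cd36 peak 8.70 kb outside the gene is at 15.1 and 18.8 in KO against 2.34 and 0.913 in WT, and its KO intervals lie above that of WT replicate 2 but overlap that of WT replicate 1; in the other 4 peaks at least 1 KO interval overlaps both WT intervals.

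Within 50 kb of the gene bodies the 8 genes had 13 further listed peaks. Outside Cd36 a peak called in KO only, chr5:17897663-17898041, lay 8.70 kb from the gene and had 7 and 8 counts in KO, against 1 and 2 in WT, or 15.1 and 18.8 per 100000 against 2.34 and 0.913. It was not tested, since its counts were under the filter. Upstream of Plin2, 2.48 kb before the start site shown above, a peak called in WT only (chr4:86672319-86672753) had 0 and 4 counts in KO, against 6 and 42 in WT, or 0 and 9.41 per 100000 against 14.1 and 19.2. The exact 95% interval of the 0 counts in KO replicate 1 reaches 7.98 per 100000. Pparg had 5 peaks outside its body, of which 2 were tested (log2 -0.74 ± 0.68 and -0.16 ± 0.53 SE; edgeR adjusted p = 0.440 and 0.844). The peak 5.30 kb from Dgat1 lies in its neighbour Hsf1, and the one 9.82 kb from Pnpla2 in Cd151. The nearest listed peaks to Fabp4 and Fabp5, the genes with the largest RNA differences of the 8, lay 210.3 and 65.7 kb away, so 5hmC in and beside them was not measured by this partial list.

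The wider pathway was similar. Of 122 pathway genes, the 8 included, 36 had a listed peak in the gene body, 48 peaks in all. Of these, 75.0% were called in WT only, beside 77.0% of all listed peaks, and the droplet coat and assembly list had none. Only 6 were tested and none was called. The smallest adjusted p among them was that of Soat1, whose RNA is given above: its peak had 1 and 3 counts in KO, against 15 and 40 in WT (log2 -2.20 ± 0.97 SE; edgeR adjusted p = 0.0964).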

How the data were processed

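The authors deposited whole-number counts per gene (RNA depleted of ribosomal RNA, per the labels) and whole-number counts per peak (biotin-enriched 5hmC DNA, per the labels). Tools named in the submitters' processing notes are STAR, BWA, HTSeq, MACS2, Trim Galore and CASAVA 1.4, with build GRCm38; whether counting used strand is not stated. Peaks were called on libraries merged by genotype, per the peak names in the files. Symbols were found for 47224 of 47731 genes, and gene bodies and promoters came from RefSeq tables (GRCm38.p6). Each assay was fitted over all its features with edgeR 4.0.16 in R 4.3.3 (quasi-likelihood F test, filterByExpr, TMM, two-sided, Benjamini-Hochberg, threshold 0.05). A check on simulated data, drawn with the same scatter for all features, required only that the size of known fold changes be recovered. The KO 5hmC libraries entered as their rounded mean (chi-square per degree of freedom 0.575 between them, 1.20 between the WT pair). Genes and lists were chosen with earlier results of these data known. From each list the 3 tested genes with the smallest unadjusted p and a mean of at least 1 CPM were named. Likeness used log2(normalised CPM + 0.5). Alternatives were DESeq2 1.42.0, RLE and total-count scaling, no filter, a threshold of 0.1, a replicate block, other peak sets and leaving out each library.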

Additional observations from a re-analysis of the deposited data

How the results depend on the processing

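Among the 8 genes DESeq2 called 2 (Fabp4 at log2 -4.31, Fabp5 at -3.03), and no other alternative called any. Lpl reversed under a replicate block (-0.38), without KO replicate 2 (-0.25) and without WT replicate 3 (-0.40), and Plin2 without WT replicate 1 (0.31); the cause was not tested. With 1 library left out, Lpl ran from -0.40 to 0.77, Plin2 from -0.80 to 0.31, and the number of the 8 genes higher without overlap from 0 to 2, the last an alternative chosen after seeing the data.

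Over all genes, 2 higher RNA calls became 500 under DESeq2, 0 under total-count scaling, 0 under the replicate block and 0 without any 1 library; 0 lower calls became 711 under DESeq2 and 1 at a threshold of 0.1. Same-numbered RNA libraries did not deviate together (r = 0.00125 and -0.124 across genes), and the labels give no pairing, so they share only a number. List medians moved beyond the spread between libraries with no filter on low counts for uptake and binding (-0.90), droplet coat (-1.01) and lipolysis (-0.67), where the median of all genes was -0.16. Under the replicate block they moved for LPL partners (0.22), uptake and binding (-0.19) and droplet coat (-0.11). With 1 library left out the medians ran from -1.02 to 0.22 for LPL partners, -0.90 to -0.21 for uptake and binding, -0.92 to -0.13 for droplet coat, -0.56 to -0.29 for oxidation and -0.25 to 0.17 for PPAR partners.

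The 5hmC calls, 154 higher and 15 lower, became 18 and 0 over peaks called in both genotypes (1 of the 3 peaks in the 8 genes), 409 and 26 over peaks with at least 1 count, 152 and 151 with the KO libraries as 2 samples, and 129 and 129 with a replicate block added. Without KO replicate 1 they were 157 and 77, and without KO replicate 2, 156 and 29. Leaving out a WT library required the KO libraries as 2 samples, so 2 choices changed together: the calls were then 241 and 264 without WT replicate 1 and 200 and 131 without WT replicate 2, beside 152 and 151 for the KO libraries as 2 samples alone. The 5hmC depth leaves most single peaks untestable: 859 of 9151 passed the filter.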
